A study of Homo sapiens with 2 samples.

Results

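The genes described here are the transcriptional end of the Hippo pathway: the coactivators YAP1 and WWTR1 (which encodes TAZ), the DNA-binding partners TEAD1 to TEAD4, the Vestigial-like cofactors VGLL1, VGLL3 and VGLL4, and the kinase LATS2. These 10 genes were picked by symbol from a table of 60619 genes, with their folds already known, so their values are descriptions. All 10 passed the filter on low counts, which left 13304 genes. RNA was measured in HBEC-3KT, a line of human bronchial epithelium immortalized with CDK4 and TERT, given a lentivirus with human CBS (pLenti6-hCBS) or the empty pLenti6 vector (the control), and selected with blasticidin at 10 µg/mL. CBS encodes cystathionine beta-synthase, an enzyme of homocysteine metabolism. The design asked how CBS expression bears on Polycomb repressive complex 2. Exposure to virus lasted 4 to 8 hours and culture on gelatin 4 to 5 days, per the labels. Each group held 1 library from cells of 1 line, so the spread between cultures is unknown and no test between conditions was possible.

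In the Hippo pathway, the kinases MST1 and MST2 (genes STK4 and STK3) activate the kinases LATS1 and LATS2, which phosphorylate YAP and TAZ and keep them out of the nucleus. YAP and TAZ bind no DNA themselves and reach their target genes through TEAD factors, which recognise the core sequence GGAATG. Vestigial-like proteins bind TEAD factors at a surface that overlaps the one used by YAP and TAZ. In the airway the pathway is known for its part in maintaining basal cells. Its activity is set largely by phosphorylation and localization of the proteins, which transcript levels do not show.

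VGLL1 stood apart from the other genes, at a level 11.2-fold higher in the CBS library, while each of the other 9 lay within 1.5-fold of the empty-vector level. In counts scaled to library size, YAP1 and WWTR1 had almost the same level in both libraries. TEAD4 supplied over 90% of TEAD transcripts per length in both, TEAD1 and LATS2 were slightly higher with CBS, and TEAD2, TEAD3, VGLL3 and VGLL4 were slightly lower in counts.

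The sequence around the start site is shown for the 3 genes in which the TEAD core was found, since VGLL1 is the gene that differed most and YAP1 and LATS2 are the coactivator and the kinase of the same pathway. RefSeq start-site windows of 300 bases (250 before the start and 50 after, GRCh38.p14) matched 8 of the 10 genes, with 14 windows between them, and TEAD1 and TEAD4 had none. GGAATG was searched on both strands, where the other strand reads CATTCC. Capitals mark the match, and each sequence runs 5′ to 3′ on the strand of its gene.
VGLL1: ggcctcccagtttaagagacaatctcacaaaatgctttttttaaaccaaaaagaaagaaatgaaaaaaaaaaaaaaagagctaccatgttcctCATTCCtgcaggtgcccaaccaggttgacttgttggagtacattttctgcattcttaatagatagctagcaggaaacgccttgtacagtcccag
YAP1: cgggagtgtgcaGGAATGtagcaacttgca
LATS2: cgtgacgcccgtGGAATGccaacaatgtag

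The VGLL1 stretch lies at chrX:136531965-136532151 (plus strand) and ends at the base before the gene start of the deposited table. The RefSeq start lies 63 bases further on, and the match begins 157 bases before it. The YAP1 stretch lies at chr11:102110273-102110302 (plus strand), with the match 162 bases before the start. The LATS2 stretch lies at chr13:21061560-21061589 (minus strand), and its match begins at base 10 of the RefSeq transcript. In the deposited table LATS2 starts at 21061547 on this strand, so by that start the whole stretch lies before the gene. Each of the 3 windows held 1 match, and the windows of VGLL3, VGLL4, WWTR1, TEAD2 and TEAD3 held none. Over all genes with a window, 16.7% held the core in at least 1 window, and among genes above the filter it was 15.1%. A match of 6 bases is a description of the letters and not a binding site.

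The libraries held 20785957 counts with CBS against 20433062 in the control, rounded from the authors' expected counts. CBS and its near-identical copy CBSL, which share reads, summed to 8047 against 623 counts, 12.1-fold higher in the CBS library (95% counting interval 11.1 to 13.1), as its label says. All 7 basal epithelial markers passed the filter, among them TP63 and ITGA6, but their summed level was 6231 CPM with CBS against 8839 in the control. The largest terms of this sum were KRT5, at 2552 against 4205 CPM, and ITGB4, at 2549 against 3155 CPM. Of the 7, KRT14 and KRT15 were at least 2-fold lower, beside 5.28% of all genes above the filter by the rule given below. NGFR, another of the 7, went the other way, at 108 against 56.2 CPM. The 4 general epithelial markers summed to 4070 against 2863 CPM, with KRT18, EPCAM and KRT8 above the control at log2 folds of 0.68, 0.54 and 0.46 and CDH1 below it at -0.24. Markers of fibroblasts summed to 6.24 and 13.8 CPM, nearly all of it COL1A1, and 4 of the 7 (COL1A2, COL3A1, DCN and LUM) had no count in either library. Markers of endothelial, immune and secretory cells each summed to under 1 CPM, with PTPRC, CD3E and CD163 at 0, and of 4 ciliated markers FOXJ1 and DNAI1 had no count, TPPP3 had 2 against 0 counts and CCDC78 was at 3.89 against 2.81 CPM. The part of these marker differences in the results below was not tested. In bulk RNA, fewer cells expressing a gene and less RNA per cell cannot be told apart.

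Levels are compared between genes as TPM, the authors' values per length and depth, and between libraries as CPM (counts scaled to library size by TMM). A log2 fold compares CBS with the control and includes a prior count of 5, and its interval is an exact 95% interval for the ratio of the counts, made without the prior. These intervals cover counting error only. A gene counts as higher or lower when its fold reaches 2 and its interval excludes a ratio of 1. By that rule 1 of the 10 genes, VGLL1, was higher and none was lower, beside 1.41% of all 13304 genes higher and 5.28% lower. Of the 10 intervals, 3 excluded a ratio of 1 on the high side, 5 did so on the low side and 2 held it, against 31.6%, 31.1% and 37.3% of all genes. The genes were picked with this contrast known, so nothing is read from these shares. The median log2 fold of the 10 was -0.02, and that of all genes above the filter was 0.00.

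**Figure D1:**
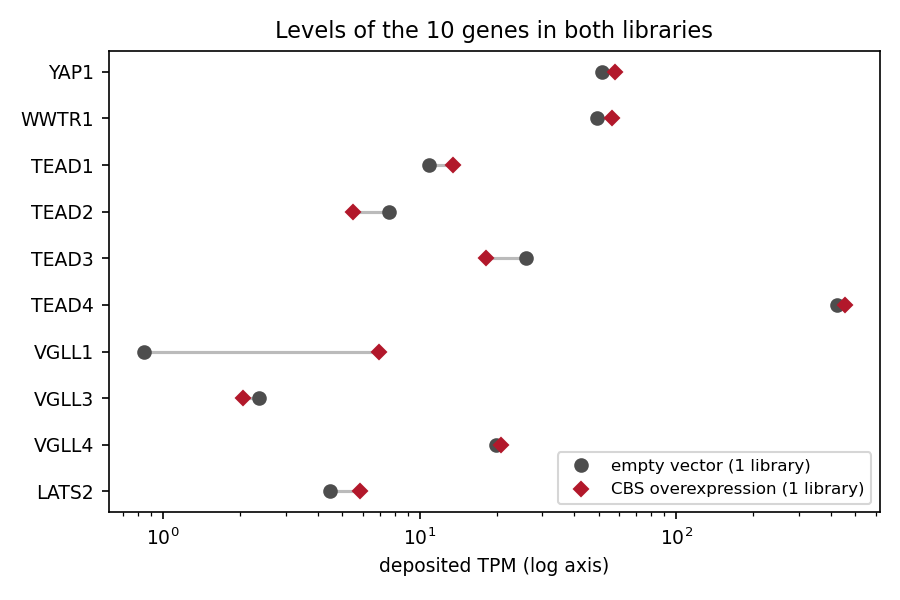
Deposited TPM of the 10 genes (log axis) in the control library (circles) and the CBS library (diamonds), 1 library each, with a line joining the 2 values of a gene. VGLL1 has the longest line, from 0.84 to 6.93 TPM, and TEAD4 lies furthest to the right at 423 and 454 TPM.

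The coactivators come first. YAP1 (ENSG00000137693, chromosome 11, 102110461 to 102233423), the founding member of the pair, had 3394 counts with CBS against 3164 in the control, or 159.2 and 158.8 CPM. On this scale the level of YAP1 was nearly the same in both libraries, with a ratio of 1.002 (0.954 to 1.05). WWTR1 (ENSG00000018408, chromosome 3, 149517235 to 149736714), whose product TAZ shares the WW and TEAD-binding domains of YAP, had 2867 against 2670 counts and 134.5 against 134.0 CPM. Its ratio was 1.003 (0.951 to 1.06). Of all genes above the filter, 99.5% had a fold further from a ratio of 1 than YAP1 and 99.2% a fold further than WWTR1.

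Per length the coactivators were close to each other. YAP1 stood at 57.9 TPM with CBS and 51.6 in the control, and WWTR1 at 56.5 and 49.2. YAP1 made up 50.6% of their sum in the CBS library and 51.2% in the control library, so neither of these transcripts dominated in either library. In log2(TPM + 1) both were slightly higher with CBS, YAP1 by 0.16 and WWTR1 by 0.19, where the median of all genes was also above zero at 0.09. With the trend of folds on GC content and length removed, both were slightly lower instead, YAP1 at -0.08 and WWTR1 at -0.10. The direction of these small differences therefore depended on the scale.

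TEAD factors carry YAP and TAZ to DNA, and here 1 of the 4 paralogs supplied nearly all of their transcripts. TEAD4 (ENSG00000197905, chromosome 12, 2959330 to 3040673), known for its role in the trophectoderm and in muscle, had 8612 counts with CBS against 8336 in the control. That is 454 and 423 TPM, above 97.9% and 97.8% of all genes above the filter in the respective libraries. TEAD4 made up 92.4% of TEAD TPM with CBS and 90.5% in the control. In counts its log2 fold was -0.05 (-0.09 to -0.01), but its direction was positive under plain library totals at 0.02, in TPM at 0.10 and with the GC and length trend removed at 0.13. No direction is given for TEAD4 for that reason.

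TEAD1 (ENSG00000187079, chromosome 11, 12674591 to 12944483), a regulator of heart and muscle genes, had 1389 against 1087 counts. It was at 65.1 CPM with CBS against 54.6 in the control, a ratio of 1.19 (1.10 to 1.29). TEAD1 was the only TEAD gene whose interval lay above a ratio of 1, and its log2 fold of 0.25 (0.14 to 0.37) ranged from 0.16 to 0.33 under the 6 alternatives. Of all genes, 54.5% had a fold further from a ratio of 1.

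TEAD2 and TEAD3 were lower with CBS. TEAD2 (ENSG00000074219, chromosome 19, 49340595 to 49362457), a paralog prominent in the early embryo, had 153 against 209 counts, or 7.18 against 10.5 CPM. Its ratio was 0.684 (0.552 to 0.847) and its log2 fold -0.53 (-0.86 to -0.24), the lowest of the 10 genes. TEAD3 (ENSG00000007866, chromosome 6, 35473597 to 35497076), a paralog found in placenta, had 677 against 817 counts, or 31.8 against 41.0 CPM. Its ratio was 0.774 (0.698 to 0.858) and its log2 fold -0.37 (-0.52 to -0.22). Both remained lower in each alternative, TEAD2 between -0.55 and -0.39 and TEAD3 between -0.50 and -0.19.

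The TEAD family as a whole summed to 491 TPM with CBS and 468 in the control, a ratio of 1.05. In CPM the direction was the opposite, with a TEAD sum of 508 against 525. Within the TPM sum TEAD3 gave 3.69% with CBS and 5.57% in the control, TEAD1 2.75% and 2.32%, and TEAD2 1.12% and 1.62%. TEAD4 thus exceeded TEAD3, the next in order in both libraries, 25.0-fold with CBS and 16.2-fold in the control. In counts, which are not per length, TEAD4 made up 79.5% and 79.8%, with TEAD1 second at 12.8% and 10.4%. The longest transcript of TEAD1 has 8477 bases in GENCODE 29 and that of TEAD4 has 1690. YAP1 and WWTR1 together came to 0.233 of the TEAD sum with CBS and 0.215 in the control, in TPM.

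**Figure D2:**
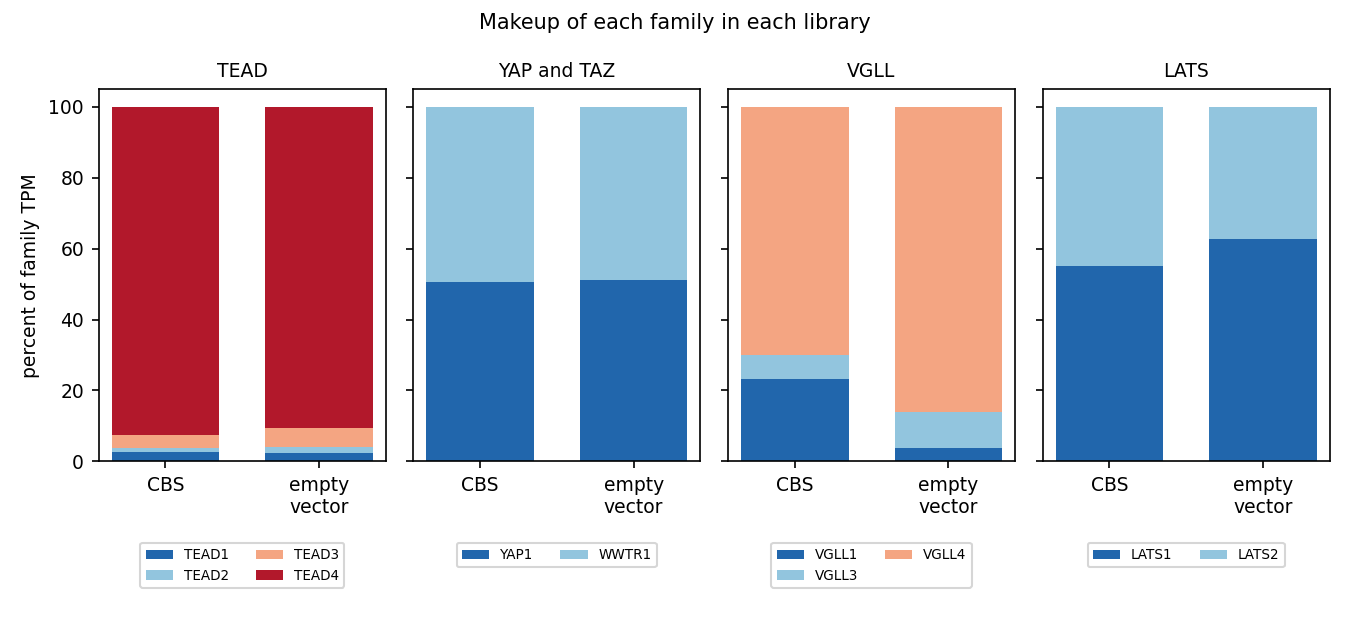
Percent of each family's summed TPM from each paralog (vertical axis, from 0) in the CBS and the empty-vector library, 1 library per bar. TEAD4 fills 92.4% and 90.5% of the TEAD bars, and VGLL1 fills 23.2% of the VGLL bar in the CBS library and 3.64% in the control library.

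Among the Vestigial-like cofactors, VGLL1 was higher and the other 2 measured members were not. VGLL1 (ENSG00000102243, chromosome X, 136532152 to 136556807), a short TEAD-binding protein known from placenta and basal-like breast cancer, had 108 counts with CBS against 9 in the control. That is 5.07 against 0.452 CPM, a ratio of 11.2 (5.69 to 25.2), and the width of this interval comes from the 9 counts. With the prior count its log2 fold was 2.93 (2.51 to 4.65), and 0.22% of all genes lay further from a ratio of 1. The value moved with the prior count, from 3.35 with a prior of 1 to 2.09 with a prior of 20, and it was 2.11 in log2(TPM + 1). VGLL1 was at least 2-fold higher in each of these. It was a low transcript in both libraries, above 32.2% of the genes in the CBS library and above 3.37% in the control library, by TPM.

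VGLL4 (ENSG00000144560, chromosome 3, 11556070 to 11771350), a repressor with paired TEAD-binding motifs that competes with YAP, had 725 against 813 counts. It was at 34.0 CPM with CBS against 40.8 in the control, with a ratio of 0.833 (0.753 to 0.922), and its log2 fold was -0.26. In TPM it was not lower, at 20.8 against 19.9. VGLL3 (ENSG00000206538, chromosome 3, 86937969 to 86991119), known for sex-biased expression in skin and for a role in fibroblasts, had 309 against 360 counts, or 14.5 against 18.1 CPM. Its ratio was 0.802 (0.687 to 0.936) and its log2 fold -0.31, and it was lower in each alternative. Of the 7 fibroblast markers only COL1A1 passed the filter, with 132 against 270 counts but 3.18 against 3.88 TPM, and its part in the value of VGLL3 was not tested. The remaining paralog VGLL2, a cofactor of skeletal muscle, had no count in either library.

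The order within the VGLL family differed between the libraries. In the empty-vector library VGLL4 gave 86.1% of VGLL TPM, VGLL3 10.2% and VGLL1 3.64%. In the CBS library VGLL4 gave 69.9%, VGLL1 23.2% and VGLL3 6.88%. VGLL3 was 2.81-fold above VGLL1 in the control, and VGLL1 was 3.38-fold above VGLL3 with CBS. In counts, which favour the long VGLL3 transcript, VGLL1 stayed the smallest share in both libraries, at 9.46% with CBS and 0.761% in the control. The VGLL sum was 29.8 TPM with CBS and 23.1 in the control, 0.0607 and 0.0493 of the TEAD sum. In CPM the VGLL sum was the lower one with CBS, at 53.6 against 59.3.

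LATS2 (ENSG00000150457, chromosome 13, 20973032 to 21061547), a kinase that phosphorylates YAP and TAZ and is itself a known YAP target, had 464 counts with CBS against 361 in the control. It was at 21.8 against 18.1 CPM, with a ratio of 1.20 (1.04 to 1.38), and its log2 fold was 0.26 (0.06 to 0.47). LATS2 was higher in each alternative, between 0.25 and 0.33. Its paralog LATS1 (ENSG00000131023, chromosome 6, 149658153 to 149718256), the kinase the set of 10 leaves out, had 765 against 826 counts, and its log2 fold was -0.21 (-0.35 to -0.07). LATS2 thus made up 45.0% of LATS TPM with CBS and 37.4% in the control. The LATS sum was 13.0 against 12.0 TPM but 57.6 against 59.6 CPM, so its direction differed between the scales.

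**Figure D3:**
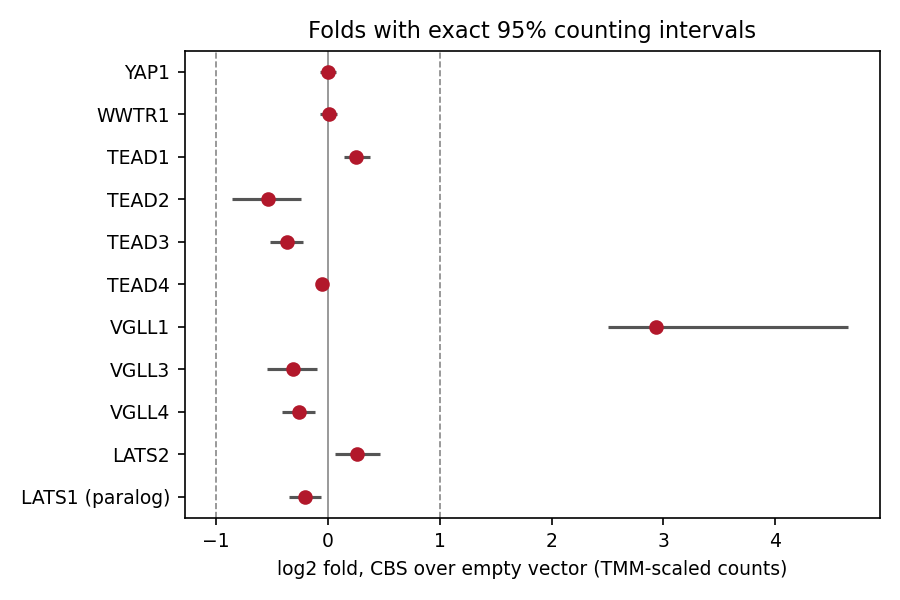
Log2 fold of CBS over empty vector for the 10 genes and LATS1 (horizontal axis, TMM-scaled counts, prior count of 5), with exact 95% counting intervals as lines. Dashed lines mark a 2-fold difference, and VGLL1 at 2.93 is the only gene beyond them.

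**Figure D4:**
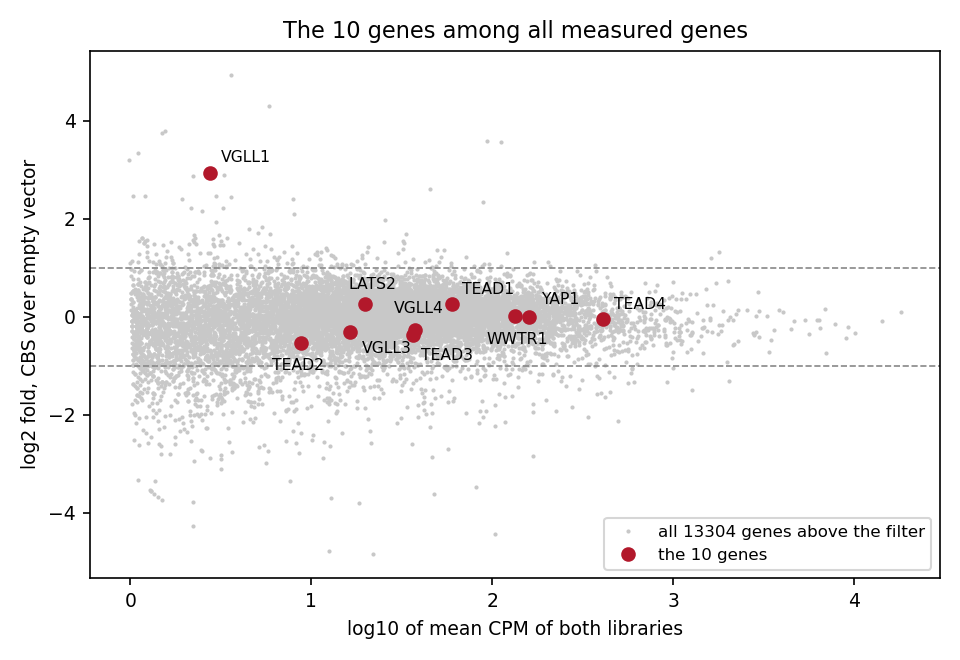
Log2 fold (vertical axis) against log10 of the mean CPM of both libraries (horizontal axis) for all 13304 genes above the filter in grey and the 10 genes in red, with dashed lines at 2-fold. VGLL1 sits among the low transcripts above the 2-fold line, and the other 9 lie within the grey band.

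By level, the order in the control library was TEAD4, YAP1, WWTR1, TEAD3, VGLL4, TEAD1, TEAD2, LATS2, VGLL3 and VGLL1, in TPM. In the CBS library VGLL4 stood above TEAD3 and LATS2 above TEAD2. There VGLL1, the lowest in the control, stood above LATS2, TEAD2 and VGLL3. With 1 library per group it cannot be said which neighbours in this order differ beyond the spread between cultures. Folds across all genes followed transcript GC content, with a Spearman correlation of -0.28 over 13225 genes, which share both libraries. The longest transcripts of TEAD2, TEAD3 and TEAD4 had 58.4%, 59.8% and 60.4% GC, and those of VGLL3, WWTR1, TEAD1 and YAP1 had 37.3% to 43.5%, around a median of 48.1%. With this trend and that on length removed, the log2 fold of VGLL1 was 2.94, that of TEAD3 -0.19, TEAD2 -0.39, VGLL3 -0.41 and LATS2 0.29.

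Among the 9 genes other than VGLL1, which had too few counts for this measure, counts and TPM disagreed most for TEAD3 and VGLL4, which were looked at for this after their values were seen. The ratio of a gene's count to its TPM gives the length assumed for it in a library. Relative to the median of 10443 well-counted genes, the length assumed for TEAD3 was 1.21-fold longer in the CBS library, and 6.55% of those genes lay as far from no difference. For VGLL4 it was 0.863 times that of the empty vector, with 10.8% of the genes as far off. GENCODE 29 lists 2 coding transcripts of TEAD3, of 1676 and 2983 bases, and 16 of VGLL4, from 93 to 3725 bases. For LATS2, with 1 coding transcript, the log2 of the same ratio was 0.00. The files give no level per transcript, so the makeup of transcripts was not measured.

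None of the 5 genes above the filter within 500 kb of VGLL1 was at least 2-fold higher or lower. Over all genes above the filter these shares were only 1.41% and 5.28%, so nothing is read from this absence. The nearest gene above the filter on the left, HTATSF1, ends 19806 bases before VGLL1 and had 974 against 764 counts. HTATSF1, whose product acts in transcription and splicing, was at 0.25 (0.11 to 0.39) on the log2 scale. On the right RBMX, which encodes an RNA-binding protein, begins 291197 bases away and was at 0.26 (0.21 to 0.32). Within 500 kb of VGLL1 the table held 30 other genes, 21 of them without a count in either library. The 5 above the filter had log2 folds from -0.20 to 0.35, with 4 intervals above a ratio of 1 and 1 below. MIR934, a microRNA gene inside VGLL1 on the same strand, had no count in either library. Strand cannot separate its reads from those of VGLL1, so the lack of counts is not read as absence.

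Across all 10 genes, 20 flanking neighbours had a median log2 fold of -0.03 and a range of -1.14 to 0.66. The only one at least 2-fold lower was BIRC3, an inhibitor of apoptosis beside YAP1, at -1.14 (-1.55 to -0.82), and none was at least 2-fold higher. By the same rule 5.28% of all genes above the filter were lower and 1.41% higher, so nothing is read from this count. BIRC3 was singled out after its values were seen. VGLL4 overlaps the 3′ end of ATG7, an autophagy gene on the other strand, which had 685 against 536 counts and was at 0.25 (0.09 to 0.42). Strandedness was not given in the sources used here, so reads in that overlap cannot be told apart. No other gene that overlaps any of the 10 in GENCODE 29 had more than 12 counts in a library.

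Other genes of the pathway were counted from lists of known components. The kinases and scaffolds upstream of YAP and TAZ held 21 genes, 20 of them above the filter. None was at least 2-fold higher or lower, and the median log2 fold was 0.09, with 8 intervals above a ratio of 1, 5 below and 7 that held it. Of all genes above the filter, 31.6% had an interval above a ratio of 1, 31.1% below and 37.3% that held it. By the 2-fold rule 1.41% of them were higher and 5.28% lower. The members furthest from a ratio of 1 were MINK1, a kinase that activates LATS, at -0.53 (-0.60 to -0.47), WWC3, a scaffold of the KIBRA family, at 0.53 (0.33 to 0.75), and NF2, which encodes merlin, at 0.42 (0.29 to 0.57).

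Of the direct binders of YAP, TAZ or LATS, 17 were above the filter. Among them 6 had an interval above a ratio of 1, 7 below and 4 that held it, and none passed 2-fold. The shares over all genes were 31.6%, 31.1% and 37.3%, and 1.41% and 5.28% passed 2-fold upward and downward. CSNK1E, a casein kinase that acts in YAP turnover, was at -0.59 (-0.64 to -0.54), AMOTL2, an angiomotin that holds YAP in the cytoplasm, at 0.44 (0.29 to 0.59), and SFN, the 14-3-3 protein sigma of epithelia, at -0.43 (-0.46 to -0.41). In the STRIPAK phosphatase complex, which opposes the MST kinases, 8 of 13 intervals held a ratio of 1 and the median was 0.02. PPP2R1B, a scaffold subunit, was at 0.57 (0.43 to 0.72), PPP2CB, a catalytic subunit, at -0.29 (-0.39 to -0.20), and FGFR1OP2 at -0.17 (-0.36 to 0.02).

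Polarity proteins and atypical cadherins had a median of -0.09 over 13 genes. In this list 1 member was at least 2-fold lower, the cadherin DCHS1, a ligand of FAT4, at -1.75 (-3.26 to -1.19) with 11 against 46 counts. Of all genes above the filter, 5.28% were lower by this rule. CRB3, a Crumbs polarity protein, was at -0.64 (-0.92 to -0.38), FAT2 at -0.43 (-0.49 to -0.38) and FAT4 at 0.40 (-0.03 to 0.88). The list of other nuclear partners of TEAD, YAP or TAZ held 13 genes, 9 of them above the filter and 2 without a count in either library. None of the 9 had an interval above a ratio of 1 and 6 had one below, with a median of -0.21. Over all genes above the filter, 31.6% had an interval above a ratio of 1 and 31.1% had one below. TP73, a p53 relative that binds YAP, was at -0.62 (-0.92 to -0.35), SMAD3, a TGF-beta effector, at -0.54 (-0.59 to -0.48) and RUNX1, which binds YAP and TAZ, at -0.47 (-0.55 to -0.38). DCHS1 is named because it is the only member of its list past 2-fold.

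Known targets of YAP and TAZ had the highest median of these lists, 0.44 over 21 genes beside 0.00 over all genes, with LATS2 not counted among them. Of the 21 intervals, 14 excluded a ratio of 1 on the high side, 4 on the low side, and 3 held it. Over all genes above the filter these shares were 31.6%, 31.1% and 37.3%. When at least 100 counts were required, the median of the targets was 0.34 and that of all genes 0.03. At least 2-fold higher were ANKRD1, a muscle ankyrin repeat protein, with 41 against 3 counts, and TGFB2, a TGF-beta ligand, at 1.19 (0.98 to 1.44) with 566 against 229 counts. The CPM ratio for ANKRD1 was 12.8 (4.07 to 64.5) and rests on 3 counts. At least 2-fold lower were IGFBP3, an insulin-like growth factor binding protein, at -2.23 (-2.36 to -2.13) with 767 against 3391 counts, and FOXF2, a forkhead factor, with 15 against 35 counts. The shares of all genes past 2-fold were 1.41% higher and 5.28% lower. The ecto-enzyme NT5E at 0.73 (0.67 to 0.79), the membrane protein MYOF at 0.69 (0.65 to 0.73), FJX1 at 0.61 (0.46 to 0.76) and CRIM1 at 0.60 (0.46 to 0.75) were each higher by less than 2-fold. CYR61 (CCN1) at 0.47 (0.27 to 0.68) and CTGF (CCN2) at 0.78 (0.21 to 1.57), matricellular proteins often used as readouts, were named after their values were seen, as were ANKRD1 and FOXF2, CTGF with only 57 against 29 counts. AMOTL2 is on this list too.

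**Figure D5:**
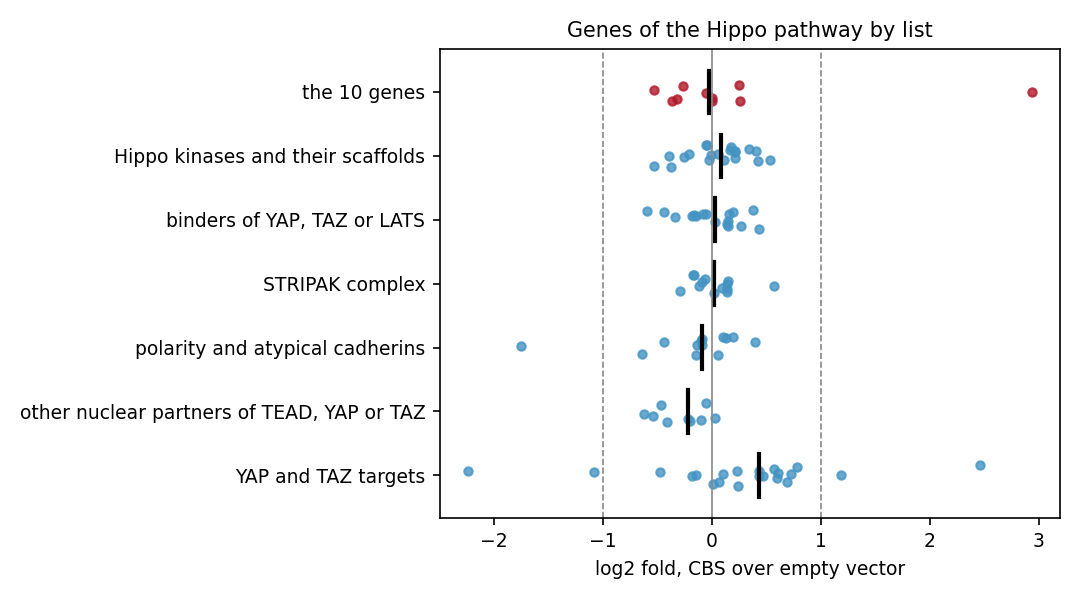
Log2 folds of CBS over empty vector (horizontal axis) for genes above the filter in each list (1 point per gene, black bars at medians, dashed lines at 2-fold). The medians lie between -0.21 and 0.44, and the 10 genes in red have a median of -0.02 with VGLL1 far to the right.

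Over all these lists together, 91 genes above the filter had a median of 0.03, with 2 at least 2-fold higher and 3 at least 2-fold lower. All 5 are named above. Among all genes above the filter, 1.41% were higher and 5.28% lower by the same rule. The lists were chosen with earlier results known, so nothing is read from these counts. With at least 100 counts required, only TGFB2 was higher and only IGFBP3 lower.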

How the data were processed

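RNA sequencing libraries, 1 from HBEC-3KT cells with CBS and 1 with the empty vector, were compared. Trimmomatic 0.39, STAR 2.6.1d, RSEM 1.3.2 and GRCh38 are tools and a build that the submitters' processing notes name, with no order or role. The annotation release is not given in the sources used here. Expected counts were deposited by the authors and rounded here, together with deposited TPM values, which sum to 1000000 in the CBS library.

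Genes with at least 10 counts in 1 library and 1 CPM or more on average were kept. TMM factors (edgeR 4.0.16, R 4.3.3, no model fitted) were 1.03 with CBS and 0.975 with the empty vector. Intervals are Clopper-Pearson intervals (scipy 1.17.1) and may be too narrow, since PCR reads are not independent molecules. Symbols turned into dates, 27 in all, were restored by gene ID. GC content came from the longest GENCODE 29 transcript (99.4% of kept genes), and a lowess fit (span 0.3, statsmodels 0.14.6) removed the trend on it and on length. GENCODE 29 gives the same coordinates as the table for all 10 genes but VGLL3. In simulated Poisson counts for 13304 genes, 95.8% of unchanged genes had an interval that held their fold. Such counts follow the model behind the interval, so this checks the computation and not its fit to real libraries. Of 50 genes per true log2 fold, intervals held it for 96.0% at -2, 86.0% at -1, 96.0% at 1 and 94.0% at 2. The 2-fold rule called 36.0% of genes at -1 and 52.0% at 1, and 100.0% at -2 and at 2.

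The 10 genes, the lists and the tests were chosen with earlier results of these data known. Named in each list are the 3 members (6 for the targets) furthest from a ratio of 1 among those with 100 counts or more in 1 library. DESeq2 1.42.0 size factors, plain totals, TPM as log2(TPM + 1), other prior counts, filters and fold thresholds and the GC trend were the alternatives.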

Additional observations from a re-analysis of the deposited data

How the results depend on the processing

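Of the 10 genes, 6 kept their direction under the 6 alternatives of scale, prior count and trend (TEAD1, TEAD2, TEAD3, VGLL1, VGLL3 and LATS2), and 4 did not. With the GC and length trend removed, log2 folds were -0.079 for YAP1, -0.10 for WWTR1, -0.19 for TEAD3 and 0.13 for TEAD4. In TPM they were 0.16 for YAP1, 0.19 for WWTR1, 0.10 for TEAD4, 2.11 for VGLL1 and 0.064 for VGLL4, and with plain library totals 0.076 for YAP1 and 0.022 for TEAD4. VGLL1 was at 2.09 with a prior count of 20, which pulls low counts together. The cause of the other shifts was not tested.

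Counts over all genes depended more on the settings. With 188 higher and 703 lower in the main setting, 121 were higher with a prior count of 20 and 377 lower in TPM. Without a filter there were 431 higher and 1281 lower, with at least 100 counts 115 and 438, at a fold of 1.5 934 and 1712, and at a fold of 4 23 and 105. Over the pathway lists together, 1 gene was higher and 1 lower with at least 100 counts, 7 and 6 at a fold of 1.5, and 1 lower in TPM.

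Shares within a family shifted with counts in place of TPM, which are not per length. TEAD4 then made up 79.5% of its family with CBS and 79.8% with the empty vector, YAP1 54.2% in both, VGLL1 9.46% and 0.761%, VGLL4 63.5% and 68.8%, and LATS2 37.8% and 30.4%. No paired analysis was possible because each group held 1 library. With that single library per group, the spread between replicates is unknown. Depth limits VGLL1, ANKRD1, FOXF2 and CTGF, none of which had above 35 counts in the control library.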
